A study of Mus musculus with 6 samples.

Results

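The 45 genes described here belong to the ATF4 response. They encode kinases that start it, its transcription factors, enzymes and transporters of amino acids that it is known to control, and cytosolic aminoacyl-tRNA synthetases. They were taken by gene symbol from a count table of 34745 mouse genes, and all 45 had a row and passed the filter on low counts. The RNA came from primary wild-type mouse macrophages, grown out of bone marrow in M-CSF at 20 ng/ml, and was sequenced in 6 libraries. The 3 inhibitor libraries came from cells pretreated with a KAT8 inhibitor, and the 3 DMSO libraries from cells pretreated with the solvent DMSO. Both groups were then stimulated for 6 h with R848 at 100 ng/ml, an agonist of endosomal Toll-like receptors. KAT8 is a lysine acetyltransferase. The compound, its dose and the duration of pretreatment are not in the labels, and unstimulated cells were not analysed here.

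When a cell runs short of amino acids, makes too much unfolded protein or meets other stresses, dedicated kinases phosphorylate the translation factor eIF2. Most protein synthesis then slows, while translation of the Atf4 mRNA increases. The ATF4 protein binds composite C/EBP-ATF response elements (CARE) with partners of the C/EBP family and raises transcription of genes for amino acid synthesis, uptake and tRNA charging. Because ATF4 is controlled largely at translation, its mRNA level is not a measure of its protein. In macrophages this response is known to meet inflammatory signalling, since activated cells take up and make amino acids at a changed rate.

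CARE letters were looked up in the promoters of the members, because the members moved in different directions and a shared element is the feature usually quoted for them. RefSeq promoter windows of build GRCm38.p6, from 250 bases before to 50 bases after the transcript start, were found for 36 of the 45 genes. The letters TGATGNAA were searched on both strands. They were present for 13 of the 36 members (36.1%), against 1219 of 27025 genes with a window (4.51%) and 1304 of 32851 windows (3.97%). The members were listed as ATF4-response genes, for which this element is usually quoted, so their share is not independent of that choice. A match is a description of letters and was not measured as a binding site. The stretches below are shown for 2 members whose mRNA rose (Atf3 and Nupr1), 3 that fell (Asns, Pycr1 and Gars) and 1 that did not pass the test (Chac1). Each runs 5′ to 3′ on the gene's own strand and lies before the RefSeq start, with the matching letters in capitals. On the opposite strand the motif reads as its reverse complement. Shorter stretches are given where they lie in an annotated exon.
Atf3, chr1:191183390-191183489, minus strand: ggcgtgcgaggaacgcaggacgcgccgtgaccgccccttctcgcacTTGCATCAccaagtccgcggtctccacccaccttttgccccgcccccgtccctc
Nupr1, chr7:126625562-126625591, minus strand: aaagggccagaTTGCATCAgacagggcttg
Asns, chr6:7693214-7693243, minus strand: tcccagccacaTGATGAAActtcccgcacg
Pycr1, chr11:120643798-120643897, minus strand: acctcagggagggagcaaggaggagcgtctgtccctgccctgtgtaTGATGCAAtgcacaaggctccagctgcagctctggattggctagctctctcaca
Gars, chr6:55037901-55038000, plus strand: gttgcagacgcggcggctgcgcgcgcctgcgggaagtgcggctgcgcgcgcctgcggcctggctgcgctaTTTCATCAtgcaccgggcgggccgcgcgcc
Chac1, chr2:119351003-119351102, plus strand: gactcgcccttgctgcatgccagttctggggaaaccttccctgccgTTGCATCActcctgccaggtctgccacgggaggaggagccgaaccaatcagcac

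The letters were present for 5 of the 8 synthetase genes with a window among the members. They were present for 0 of 9 other genes of the cytosolic charging machinery and 0 of 14 mitochondrial synthetase genes. This contrast too depends on how the members were chosen. By response to the inhibitor, they were present for 2 of 10 members that rose, 6 of 16 that fell and 5 of 10 that did not pass. Genes with and without the letters were thus found in each direction. No window was at hand for Eif4ebp1, Cth, Slc7a5, Slc7a3, Slc1a5, Cars, Lars, Nars and Wars.

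**Figure D1:**
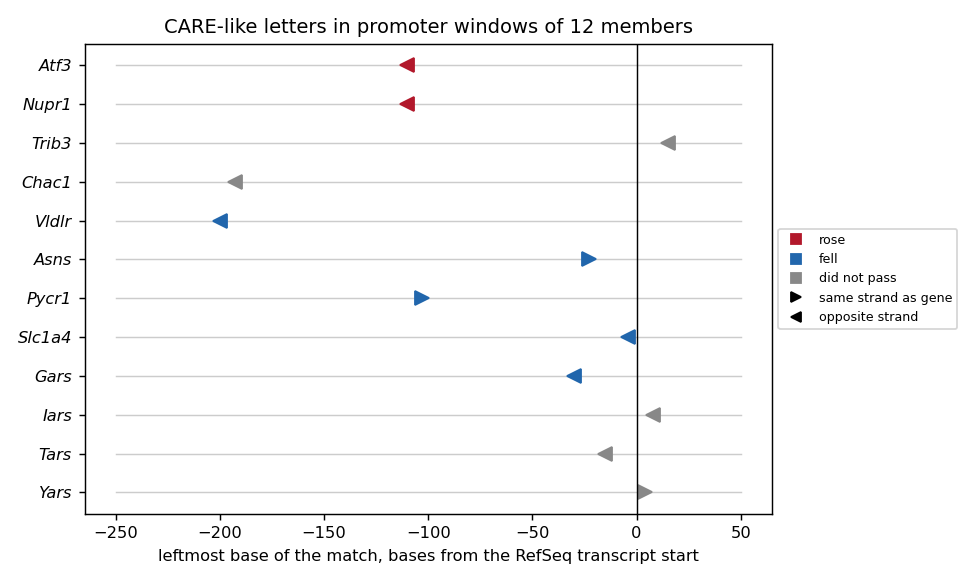
Position of the letters TGATGNAA in the promoter windows of 12 members. The x axis is the distance in bases from the RefSeq transcript start, arrows point along the strand of the match, and colours give the mRNA response to the inhibitor. Matches lie between -200 and 15.

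Total counts were 23037820 to 25089320 in the inhibitor libraries and 18441352 to 24429778 in the DMSO libraries, and a count of 0 in a library allowed up to 0.12 to 0.163 CPM (3 counts, counting error only). Levels are TMM-scaled CPM, reads as a share of the library after correction for composition. Genes were called at an adjusted p under 0.05 (edgeR, quasi-likelihood test, with Benjamini-Hochberg adjustment over 13815 tested genes), and "rose" and "fell" refer to these calls. Of macrophage markers 8 of 10 tested fell (80.0%), against 26.5% of all tested genes. Macrophage markers summed to 8977 to 9076 CPM with the inhibitor and 15686 to 17695 CPM with DMSO. Their most abundant gene, Lyz2, was at 4190 ± 37.1 CPM with the inhibitor and 8596 ± 632 CPM with DMSO (SD, n = 3 each). Of 12 stromal markers 10 fell (83.3%, against 26.5% of all tested genes). Stromal markers summed to 2224 to 2381 CPM with the inhibitor and 5137 to 5982 CPM with DMSO. Dendritic cell markers summed to 10.8 to 11.6 CPM with the inhibitor and 18.2 to 20.5 CPM with DMSO. Sums of neutrophil, mast cell, B cell, T and NK cell and erythroid markers were at most 8.78 CPM in any library. Counts were 0 in all libraries for 4 of 8 neutrophil, 1 of 7 mast cell and basophil and 0 of 6 B cell markers. The same held for 4 of 7 T and NK cell and 5 of 7 erythroid markers. Neutrophil markers summed to 2.08 to 2.93 CPM with the inhibitor and 6.41 to 7.16 CPM with DMSO. Both of the 2 tested neutrophil markers fell, against 26.5% of all tested genes. In bulk RNA, fewer cells of a type and less RNA per cell cannot be told apart.

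With the inhibitor, mRNAs of the transcription factors ATF4, ATF3 and ATF5 rose, while every one of the 9 amino acid and one-carbon enzymes fell and 7 of the 12 tRNA synthetases fell. Among the 45 members 10 rose, 22 fell and 13 did not pass. Of all tested genes 24.9% rose, 26.5% fell and 51.5% were called in either direction, so the share of members that rose (22.2%) was near the background and the share that fell (48.9%) was above it. The median log2 fold change (inhibitor over DMSO) was −0.16 over the members and 0.01 over all tested genes. The 3 inhibitor values lay apart from the 3 DMSO values for 33 members (73.3%), against 60.6% of all tested genes. When libraries were scaled to their totals only, the median of all genes rose by 0.11, and the members divided into 14 members higher and 17 lower, so that 45.2% of the called members were higher, against 31.2% with TMM.

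Together the members took 0.546% to 0.558% of all counts in the inhibitor libraries and 0.472% to 0.477% in the DMSO libraries. Slc3a2, Atf3 and Atf4 were the most abundant members by mean CPM with the inhibitor, and all of them rose. With DMSO, Aars (382 CPM) and Nars (342 CPM) were above Atf4 (255 CPM) and Atf3 (248 CPM). Leaving out genes picked by their inhibitor level lowers the inhibitor share by construction, so the shares without them are a description only. The other 42 members took 0.368% to 0.375% in the inhibitor libraries and 0.377% to 0.388% in the DMSO libraries. Per kilobase of the principal transcript, Slc3a2 ranked first in both groups, at 372 CPM per kb with the inhibitor and 249 with DMSO. Atf4 followed at 306 CPM per kb with the inhibitor and 148 with DMSO, and Atf3 at 276 with the inhibitor and 125 with DMSO. Phgdh was 27th of the 45 with the inhibitor and 6th with DMSO.

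**Figure D2:**
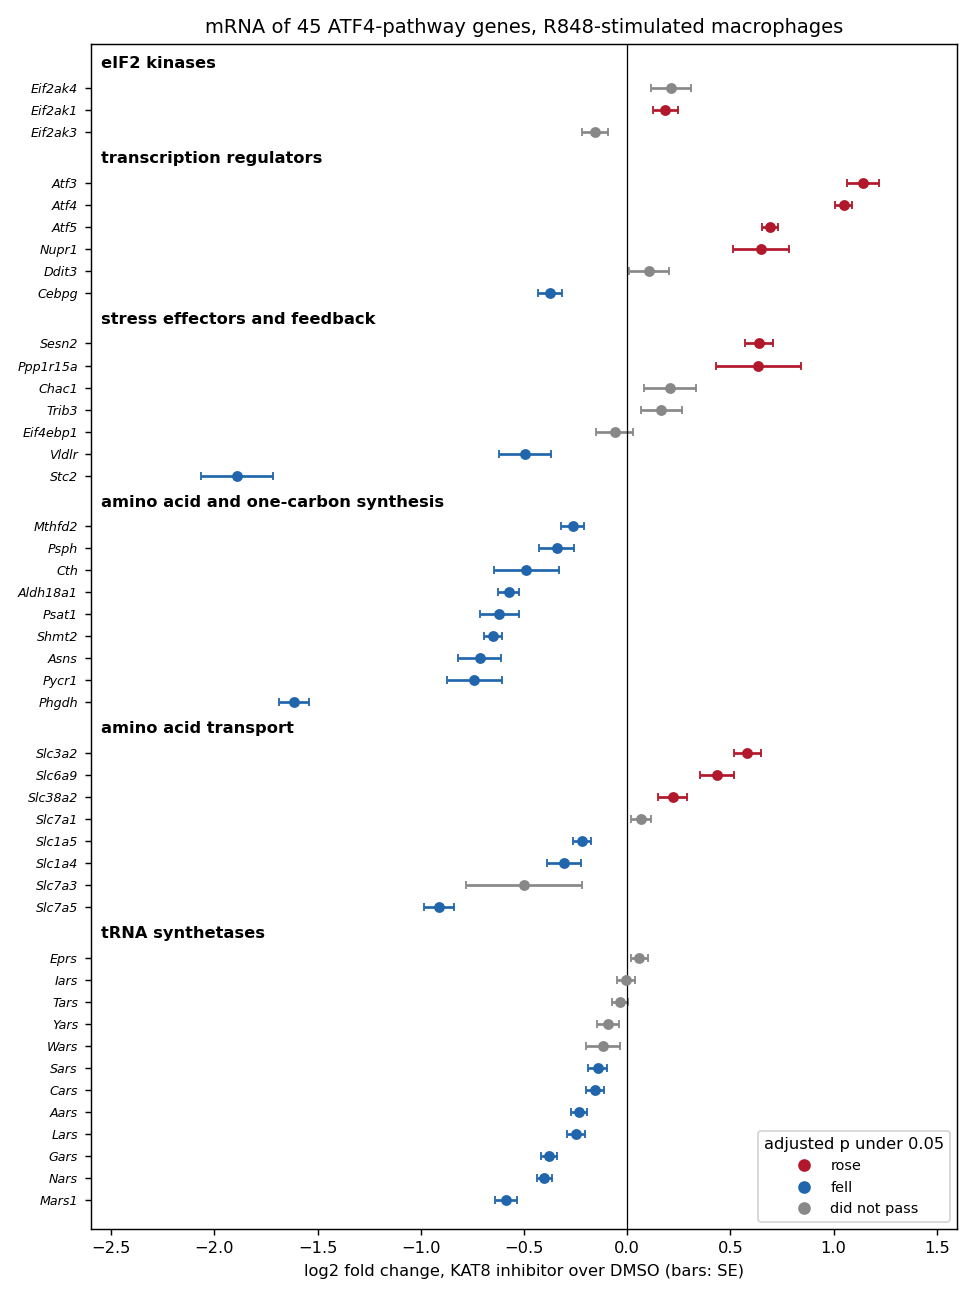
Log2 fold change (inhibitor over DMSO, x axis) of all 45 members, grouped by role, with SE bars. Transcription regulators lie mostly to the right of 0, the 9 synthesis enzymes all to the left, and tRNA synthetases at or left of 0 except Eprs (0.06). With library totals alone Iars, Tars and Yars also lie right of 0.

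Of the 3 eIF2 kinases among the members 1 was called (33.3%, against 51.5% of all tested genes). Eif2ak1 encodes HRI, which responds to heme shortage and mitochondrial stress. It was at 88.2, 89.5 and 85.0 CPM with the inhibitor and at 70.6, 81.1 and 79.4 CPM with DMSO. The groups did not overlap, and the gene rose 1.14-fold (log2 fold change 0.18, SE 0.06, adjusted p = 0.0314). This call was lost without inhibitor replicate 1 (adjusted p = 0.082), inhibitor replicate 2 (0.0989), DMSO replicate 1 (0.0557) or DMSO replicate 3 (0.0518), and with GC content and length trends removed (0.053). Its log2 fold change was 0.12 without DMSO replicate 1 and 0.29 with library totals alone. Its exons overlap those of Aimp2 and Ankrd61 on the opposite strand over 659 of 5670 bases, and whether counting used strand is not known. Eif2ak3, the endoplasmic reticulum kinase PERK, had a log2 fold change of −0.16 (adjusted p = 0.0664), and its groups did not overlap. It was called lower with GC content and length trends removed (−0.17, adjusted p = 0.0396), and was at −0.05 with library totals alone (0.565). Eif2ak4, the uncharged-tRNA sensor GCN2, had a log2 fold change of 0.21 (adjusted p = 0.101). For Eif2ak4 the log2 fold change was 0.30 without DMSO replicate 1 (adjusted p = 0.021), 0.32 with library totals alone (0.0283) and 0.12 without DMSO replicate 3 (0.303).

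Atf4 itself (ENSMUSG00000042406, chromosome 15, 80255184 to 80257541 on the plus strand of mm10) was at 518, 533 and 532 CPM with the inhibitor and at 247, 255 and 263 CPM with DMSO. The lowest inhibitor library was thus far above the highest DMSO library. The gene rose 2.07-fold (log2 fold change 1.05, SE 0.04, adjusted p = 7.7e-07 in edgeR), and it was called in all 14 alternative settings with a log2 fold change of 1.02 to 1.16.

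Atf3, a stress-induced factor of the same bZIP family that is also a known regulator of Toll-like receptor responses, was at 530, 571 and 543 CPM with the inhibitor and at 244, 278 and 223 CPM with DMSO. It rose 2.21-fold (log2 fold change 1.14, SE 0.08, adjusted p = 1.08e-05), the largest rise among the members. Atf5, which is translated under the same control as ATF4 and acts in the mitochondrial stress response, was at 153, 151 and 148 CPM with the inhibitor and at 93.5, 94.0 and 92.7 CPM with DMSO. It rose 1.61-fold (adjusted p = 3.78e-06), and its DMSO libraries differed by little more than 1 CPM. Nupr1, a small chromatin-associated stress protein, was at 39.3, 35.0 and 43.4 CPM with the inhibitor and at 29.3, 25.8 and 20.1 CPM with DMSO, without overlap, and rose 1.57-fold (adjusted p = 0.00447).

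The other transcription regulators moved differently. Ddit3 encodes CHOP, the factor linked to cell death under lasting stress. It was at 20.2, 21.5 and 19.8 CPM with the inhibitor and at 19.7, 21.0 and 16.5 CPM with DMSO. The groups overlapped and the gene did not pass (log2 fold change 0.11, 95% interval −0.08 to 0.30, adjusted p = 0.387). Exons of Ddit3 and Mars1 overlap at their neighbouring ends on opposite strands over 68 bases. With Gm4189 the overlap of Ddit3 on the opposite strand is 81 of 1713 bases. A second annotated gene named Ddit3 overlaps its exons on the same strand over 105 bases. Cebpg, a C/EBP partner of ATF4, was at 46.0, 46.2 and 41.5 CPM with the inhibitor and at 58.1, 57.6 and 57.7 CPM with DMSO. It fell 1.3-fold (log2 fold change −0.37, SE 0.06, adjusted p = 0.00089).

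**Figure D3:**
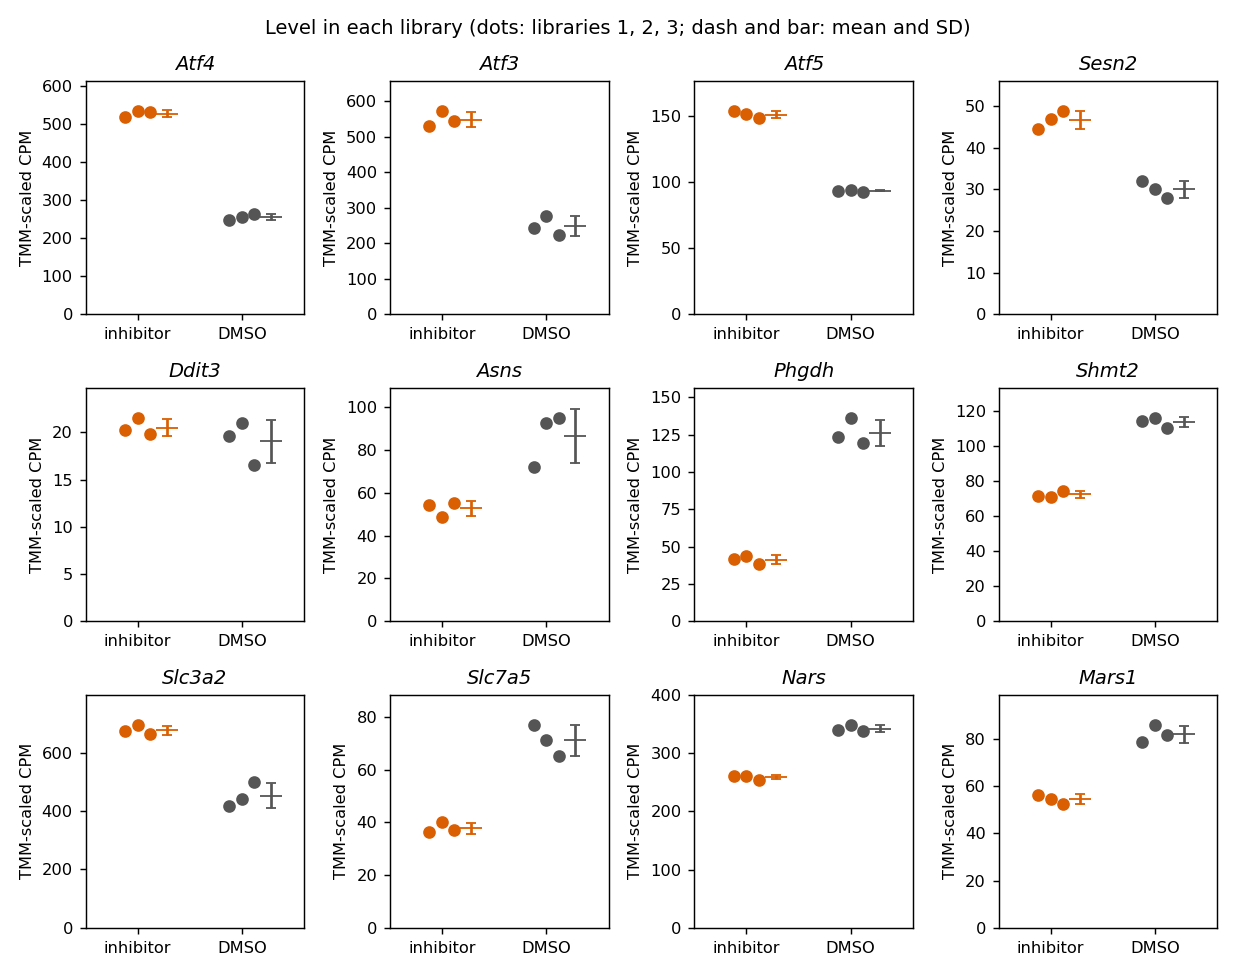
TMM-scaled CPM of 12 members in each library, with the 3 inhibitor libraries left of the 3 DMSO libraries and the mean and SD beside them. The groups are apart in every panel except Ddit3, where inhibitor values of 19.8 to 21.5 CPM and DMSO values of 16.5 to 21.0 CPM overlap.

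Of 7 effectors and feedback genes of the pathway 2 rose, 2 fell and 3 did not pass. This was 57.1% called, near the 51.5% of all tested genes. Sesn2, a leucine sensor that restrains mTORC1 and is induced by ATF4 and by oxidative stress, was at 44.4, 46.9 and 48.6 CPM with the inhibitor and at 31.99, 29.99 and 27.96 CPM with DMSO. It rose 1.56-fold (log2 fold change 0.64, SE 0.07, adjusted p = 0.000134). Ppp1r15a encodes GADD34, which directs the dephosphorylation of eIF2. It was at 81.9, 132 and 131 CPM with the inhibitor and at 91.2, 58.2 and 72.9 CPM with DMSO. Inhibitor replicate 1 lay below DMSO replicate 1, so the groups overlapped. Its 1.55-fold rise (adjusted p = 0.0319) did not pass without inhibitor replicate 2 (adjusted p = 0.101), inhibitor replicate 3 (0.0938), DMSO replicate 2 (0.0988) or DMSO replicate 3 (0.0828).

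Stc2, a secreted glycoprotein, had the largest fold change of all members. It was at 1.85, 1.44 and 1.41 CPM with the inhibitor and at 4.92, 6.17 and 6.37 CPM with DMSO, and fell 3.71-fold (log2 fold change −1.89, SE 0.18, adjusted p = 5.53e-05). This is a low level, and its counts were 48, 36 and 34 with the inhibitor and 89, 143 and 146 with DMSO. Vldlr, a lipoprotein receptor, was at 6.43, 6.99 and 7.14 CPM with the inhibitor and at 11.3, 9.23 and 8.55 CPM with DMSO, and fell 1.41-fold (adjusted p = 0.0111). Stromal and macrophage markers fell in the same libraries, and their part in these 2 falls was not tested.

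Trib3, a pseudokinase that restrains ATF4, and Chac1, which breaks down glutathione, are induced strongly when ATF4 is active. Trib3 was at 13.9, 14.7 and 12.6 CPM with the inhibitor and at 10.9, 12.7 and 13.04 CPM with DMSO. Chac1 was at 7.94, 10.3 and 9.504 CPM with the inhibitor and at 8.40, 8.41 and 7.20 CPM with DMSO. The groups overlapped for both genes. Neither passed, with log2 fold changes of 0.17 (95% interval −0.03 to 0.36) for Trib3 and 0.21 (−0.04 to 0.45) for Chac1. With library totals alone Trib3 passed as higher (log2 fold change 0.28, adjusted p = 0.0371), and without DMSO replicate 1 it was at 0.09. The translation repressor Eif4ebp1 did not pass either (−0.06, adjusted p = 0.591), and its sign turned with library totals alone.

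Enzymes of amino acid and one-carbon synthesis fell together. All 9 members fell and had groups that did not overlap, against 26.5% and 60.6% of all tested genes. Their median log2 fold change was −0.62. Calls for the 9 were the same with median-of-ratios factors, without a filter on low counts and with GC and length trends removed, while Cth alone lost its call in DESeq2 (adjusted p = 0.0877). In the same libraries 8 of 10 macrophage markers and 10 of 12 stromal markers fell. Their part in the fall of these enzymes was not tested.

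Phgdh (ENSMUSG00000053398, chromosome 3, 98313170 to 98339990, minus strand) encodes the enzyme that commits a glycolytic intermediate to serine synthesis. It was at 42.0, 43.7 and 38.0 CPM with the inhibitor and at 123, 136 and 119 CPM with DMSO. The highest inhibitor library was far below the lowest DMSO library. The gene fell 3.06-fold (log2 fold change −1.61, SE 0.07, adjusted p = 1.26e-06). The following steps of the pathway fell less. Psat1, the aminotransferase, was at 64.2, 61.3 and 61.6 CPM with the inhibitor and at 101, 106 and 80.8 CPM with DMSO, and fell 1.54-fold (adjusted p = 0.000825). Psph, the phosphatase that releases serine, fell 1.27-fold (adjusted p = 0.0104), and its exons overlap those of Cct6a on the opposite strand over 452 of 4329 bases.

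Shmt2 passes a carbon unit from serine to folate in mitochondria. It was at 71.6, 71.0 and 74.5 CPM with the inhibitor and at 114, 116 and 110 CPM with DMSO, and fell 1.57-fold (log2 fold change −0.65, SE 0.04, adjusted p = 9.78e-06). Mthfd2, the next enzyme of the mitochondrial folate pathway, fell 1.2-fold, to 101 ± 5.38 CPM with the inhibitor, against 121 ± 5.56 CPM with DMSO, and its log2 fold change was −0.27 with TMM and −0.16 with library totals alone. Among other genes of one-carbon, serine and glycine metabolism, 2 of 15 tested rose and 7 fell (median −0.20). This was 60.0% called, against 51.5% of all tested genes. The cytosolic counterpart of Shmt2, Shmt1, fell 1.87-fold (adjusted p = 0.001), and the mitochondrial formyltetrahydrofolate dehydrogenase Aldh1l2 fell 2.14-fold (adjusted p = 0.000173). The methionine synthase Mtr rose 1.35-fold (adjusted p = 0.000478).

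Asns makes asparagine and is among the best known ATF4 targets. It was at 54.1, 48.9 and 55.1 CPM with the inhibitor and at 72.0, 92.5 and 94.9 CPM with DMSO, all inhibitor values being lower, and fell 1.64-fold (log2 fold change −0.72, SE 0.10, adjusted p = 0.000657). Of the proline pathway, Aldh18a1 fell 1.49-fold (44.1 ± 0.348 CPM with the inhibitor and 65.6 ± 3.03 CPM with DMSO). Pycr1, the reductase that completes proline, fell 1.67-fold at a low level (2.98 ± 0.229 CPM with the inhibitor and 4.99 ± 0.402 CPM with DMSO; SD, n = 3). Cth, which makes cysteine by transsulfuration, was at 2.31, 2.16 and 2.82 CPM with the inhibitor and at 3.43, 3.28 and 3.53 CPM with DMSO (adjusted p = 0.0306). This call was lost without inhibitor replicate 1 (adjusted p = 0.086), inhibitor replicate 2 (0.0943) or any of DMSO replicates 1, 2 and 3 (0.0583, 0.0522 and 0.0822), and with library totals alone (0.0755). Among 15 other enzymes of proline, glutamine and aspartate metabolism, 6 rose and 3 fell (median 0.10). This was 60.0% called, against 51.5% of all tested genes. The glutamine synthetase gene Glul rose 1.45-fold, to 118 ± 2.48 CPM with the inhibitor, against 81.5 ± 2.29 CPM with DMSO, and the ornithine aminotransferase gene Oat fell 1.25-fold (adjusted p = 0.000306).

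Of 8 amino acid transporters 3 rose, 3 fell and 2 did not pass (75.0% called, against 51.5% of all tested genes). Slc3a2 encodes the heavy chain 4F2hc, which carries several transporter light chains to the cell surface. It was at 672, 694 and 665 CPM with the inhibitor and at 416, 441 and 500 CPM with DMSO. The groups were apart, and the gene rose 1.5-fold (log2 fold change 0.58, SE 0.07, adjusted p = 0.000181). Slc7a5 encodes LAT1, the light chain that imports leucine and other large neutral amino acids. It was at 36.2, 40.0 and 37.0 CPM with the inhibitor and at 76.8, 71.3 and 65.0 CPM with DMSO, and fell 1.88-fold (log2 fold change −0.91, SE 0.07, adjusted p = 2.63e-05).

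Heavy and light chain thus moved in opposite directions in the same libraries. Further light chains of 4F2hc are given here although they were chosen after their values were seen. Slc7a11, the cystine importer xCT, was at 1262, 1235 and 1314 CPM with the inhibitor and at 999, 897 and 1012 CPM with DMSO, and rose 1.31-fold (adjusted p = 0.000607). Slc7a8 rose 1.2-fold (adjusted p = 0.00201), while Slc7a6 (log2 fold change −0.06) and Slc7a7 (−0.13) did not pass. Per kilobase, Slc7a11 was the most abundant of these light chains, at 138 CPM per kb with the inhibitor and 105 with DMSO, and Slc7a5 was at 10.7 with the inhibitor and 20.2 with DMSO.

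The glycine transporter gene Slc6a9 was at 16.3, 16.9 and 16.6 CPM with the inhibitor and at 13.5, 11.7 and 11.7 CPM with DMSO, and rose 1.35-fold (adjusted p = 0.00289). Its exons overlap those of Ccdc24, Gm17114 and B4galt2 on the opposite strand over 1986 of 5141 bases, so that part of its count may belong to them. Slc38a2, the SNAT2 transporter of small neutral amino acids, was at 224, 215 and 223 CPM with the inhibitor and at 205, 169 and 194 CPM with DMSO, and rose 1.16-fold (adjusted p = 0.0279). It did not pass without inhibitor replicate 1 (adjusted p = 0.0729), inhibitor replicate 3 (0.0706) or DMSO replicate 3 (0.0541), and its log2 fold change was 0.14 without DMSO replicate 2, against 0.22 with all libraries. Slc1a5, the glutamine carrier ASCT2, was at 103, 104 and 98.5 CPM with the inhibitor and at 120, 120 and 115 CPM with DMSO, and fell 1.16-fold (adjusted p = 0.00295). Slc1a4, ASCT1, fell 1.24-fold, a call that was lost without inhibitor replicate 1 (adjusted p = 0.0539). With library totals alone neither Slc1a5 (0.0563) nor Slc1a4 (0.0775) passed.

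The arginine transporter Slc7a1 had a log2 fold change of 0.07 (95% interval −0.03 to 0.16) and did not pass, while with library totals alone it was called higher (0.17, adjusted p = 0.0216). Slc7a3, its relative, was at 1.31 to 1.72 CPM with the inhibitor and at 1.53 to 2.98 CPM with DMSO and did not pass (adjusted p = 0.17). Among 22 other amino acid transporters 9 rose and 7 fell (72.7% called, against 51.5% of all tested genes, median −0.07). Slc7a2, the arginine carrier CAT2 of activated macrophages, fell 2.56-fold, to 412 ± 8.37 CPM with the inhibitor, against 1056 ± 43.1 CPM with DMSO (adjusted p = 4.32e-07). Slc43a2, the LAT4 carrier of large neutral amino acids, rose 1.71-fold (adjusted p = 7.8e-06).

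Of the 12 cytosolic tRNA synthetases 7 fell, 5 did not pass and 0 rose, with a median log2 fold change of −0.15. Thus 58.3% fell, against 26.5% of all tested genes. At an unadjusted p under 0.05, 0 rose as well, and DESeq2 gave 0 higher and 7 lower. With library totals alone Cars (adjusted p = 0.363) and Sars (0.482) lost their calls and Eprs rose (log2 fold change 0.17, adjusted p = 0.00757), so the direction for the weakly changed members is relative to scaling. Mars1, which charges the initiator and elongator tRNAs of methionine, was at 56.4, 54.7 and 52.6 CPM with the inhibitor and at 78.7, 85.9 and 81.6 CPM with DMSO. It fell 1.5-fold (log2 fold change −0.59, SE 0.05, adjusted p = 4.58e-05). Nars, for asparagine, was at 261, 261 and 255 CPM with the inhibitor and at 341, 348 and 337 CPM with DMSO, and fell 1.32-fold (adjusted p = 5.52e-05).

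The remaining 5 that fell changed by less. Gars (glycine) fell 1.3-fold, Lars (leucine) 1.19-fold and Aars (alanine) 1.18-fold, and these 3 were called in all 14 alternative settings, although with library totals alone the log2 fold change shrank to −0.14 for Lars, against −0.25 with TMM, and to −0.12 for Aars, against −0.23. Exons of Aars overlap those of Exosc6 on the same strand over 1326 of 9282 bases. Cars (cysteine) fell 1.11-fold (adjusted p = 0.0157) but did not pass without inhibitor replicate 2 (adjusted p = 0.0537), inhibitor replicate 3 (0.067) or DMSO replicate 3 (0.0516). Sars (serine) fell 1.10-fold (adjusted p = 0.0263) but did not pass without inhibitor replicate 1 (adjusted p = 0.0886), inhibitor replicate 3 (0.0826), DMSO replicate 2 (0.0687) or DMSO replicate 3 (0.0649), nor without a filter on low counts (0.0537).

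Eprs, Iars, Tars, Wars and Yars did not pass, with log2 fold changes of −0.12 to 0.06, and with library totals alone Iars, Tars and Yars also turned positive. Iars was at 185, 183 and 183 CPM with the inhibitor and at 185, 177 and 191 CPM with DMSO, and the 95% interval of its log2 fold change ran from −0.09 to 0.08. Wars, which is also known as an interferon-induced gene, was at 74.8, 69.7 and 66.3 CPM with the inhibitor and at 68.0, 84.6 and 75.9 CPM with DMSO. The spread among its DMSO libraries was wider than the difference between group means. Without DMSO replicate 1 both Wars (−0.20, adjusted p = 0.0497) and Yars (−0.14, adjusted p = 0.0432) passed as lower, while without DMSO replicate 2 they were at −0.04 and −0.06 (adjusted p = 0.686 and 0.436).

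Other genes of tRNA charging were set beside the members. Of 12 further genes for cytosolic synthetases and proteins of the multisynthetase complex, 3 rose and 5 fell (median −0.08). This was 66.7% called, against 51.5% of all tested genes. Vars (valine) fell 1.54-fold (adjusted p = 1.16e-05), and Qars (glutamine) rose 1.24-fold, to 97.7 ± 1.09 CPM with the inhibitor, against 78.8 ± 1.70 CPM with DMSO. Of 17 mitochondrial synthetases 7 rose and 0 fell (median 0.19), so that 41.2% rose, against 24.9% of all tested genes. At an unadjusted p under 0.05 also 0 were lower, and DESeq2 gave 6 higher and 0 lower. Hars2, for histidine, was at 27.1 ± 0.158 CPM with the inhibitor and 21.4 ± 0.804 CPM with DMSO (adjusted p = 0.00211), and Vars2 did not pass (log2 fold change −0.08). The number of mitochondrial synthetases called higher was 4 without DMSO replicate 3, and the number of the 12 further cytosolic genes called lower was 2 with library totals alone, 2 without inhibitor replicate 2 and 3 without inhibitor replicate 3, DMSO replicate 2 or DMSO replicate 3. No test of the difference between these sets was made.

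**Figure D4:**
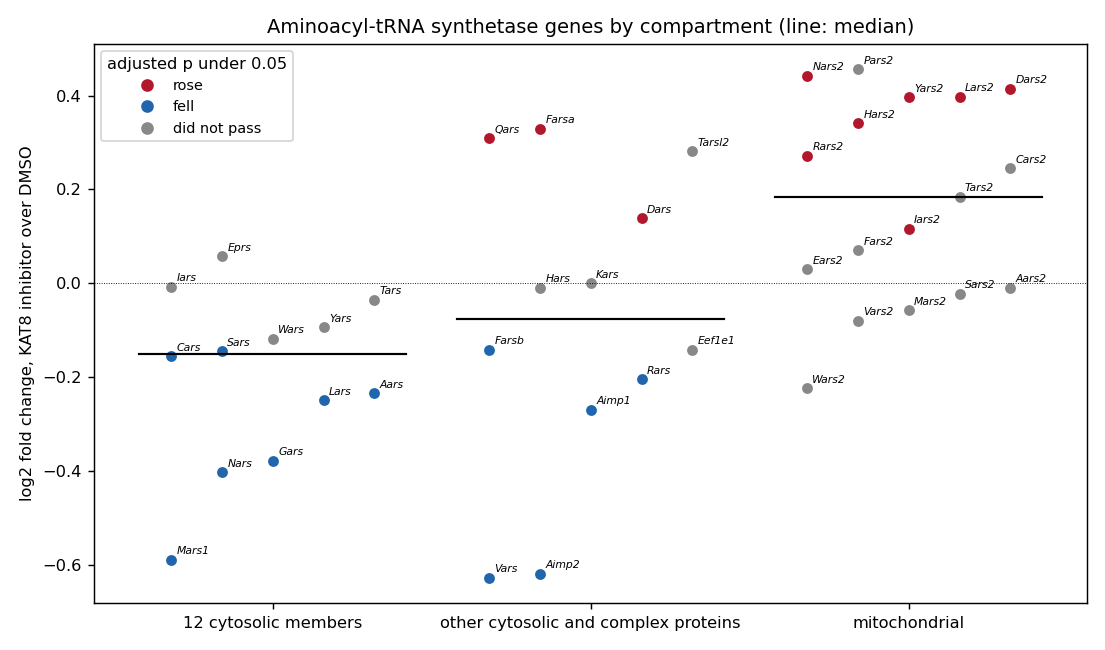
Log2 fold change (inhibitor over DMSO) of the 12 cytosolic synthetase members, 12 further cytosolic genes of tRNA charging and 17 mitochondrial synthetases, with each gene a dot and the median a line. Medians are −0.15, −0.08 and 0.19 with TMM scaling.

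Of 16 genes for eIF2, eIF2B and their regulators, 5 rose and 2 fell (43.8% called, against 51.5% of all tested genes), with a median log2 fold change of 0.09 and members in both directions. Impact, which keeps GCN2 inactive by binding its partner GCN1, rose 1.53-fold, to 198 ± 5.17 CPM with the inhibitor, against 130 ± 6.69 CPM with DMSO (adjusted p = 2.76e-05). Nck1, an adaptor protein, fell 1.87-fold (adjusted p = 5.84e-06). Of 18 genes of the ATF6 and IRE1 branches of the unfolded protein response, 3 rose and 6 fell (median −0.04). These 9 called genes were a share of the 18 near the 51.5% called of all tested genes. Atf6 itself rose 1.24-fold (adjusted p = 0.000522). Mbtps1, the protease that cleaves ATF6 in the Golgi, fell 1.56-fold (adjusted p = 2.06e-05).

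Of 21 tested genes listed as further ATF4 targets, 5 rose and 7 fell (57.1% called, against 51.5% of all tested genes, median −0.07). The number that rose was 3 without DMSO replicate 1, 3 without DMSO replicate 3 and 9 with library totals alone. The autophagy receptor Sqstm1, which is also a target of NRF2, rose 1.69-fold, to 2894 ± 276 CPM with the inhibitor, against 1711 ± 108 CPM with DMSO. Rab32, a small GTPase of lysosome-related organelles, fell 1.89-fold (adjusted p = 2.06e-06). Of 23 tested genes through which mTORC1 senses amino acids, 8 rose and 3 fell (median 0.12). This was 47.8% called, near the 51.5% of all tested genes. Within the GATOR2 complex Wdr24 rose 1.61-fold (adjusted p = 0.000107) and Wdr59 fell 1.59-fold (adjusted p = 3.56e-05).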

How the data were processed

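The authors deposited raw read counts per Ensembl gene for 6 libraries, not normalized. The tools are HISAT2, edgeR and StringTie 1.3.0 and the build is mm10, per the submitters' processing notes. What each tool did, and how reads were counted as to annotation, strand and multiple matches, is not given in the sources used here. Samples were grouped by title. Nothing in the labels ties replicates to different animals or cultures, so the spread behind each p-value may be technical. No pair of libraries within a group agreed within sampling noise (chi-square per degree of freedom 9.25 to 14.3).

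Symbols were mapped by Ensembl identifier, Mars1 through its older symbol, and coordinates come from GENCODE M21 of the same build. Of 34745 genes, 13815 passed filterByExpr (minimum count 10) and were tested in R 4.3.3 with edgeR 4.0.16 (TMM, quasi-likelihood, pretreatment only). SE was obtained by dividing the absolute log2 fold change by the square root of F, and 95% intervals are 1.96 SE either side. Levels per kilobase use the longest GENCODE principal transcript. Values are mean ± SD over 3 libraries.

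The members and lists were chosen with earlier results of these data known. Values by library are given for Atf4 and, in each role group, for up to 2 called members per direction with the smallest p and the called member with the largest change. From each further pathway list the gene with the smallest p in each direction is named. Members and genes with values beyond this rule (Nupr1, Ddit3, Trib3, Chac1, Psat1, Asns, Cth, Slc38a2, Iars, Wars, Shmt1 and light chains of 4F2hc among them) were chosen after their values were seen. Alternatives were other scalings and filters, DESeq2 1.42.0, a block for the replicate number, a stricter adjusted p (0.01), removal of GC and length trends, and leaving out each library. The promoter match of 1 member is counted but not reported here in detail. The procedure was tested on simulated data.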

Additional observations from a re-analysis of the deposited data

How the results depend on the processing

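Of the 32 called members, 22 were called in every alternative that could test them, 10 lost their call in at least 1, and 0 changed sign. Of the 13 others, 7 were called in at least 1. An adjusted p under 0.01 gave 2257 genes higher of all tested, against 3446 at 0.05, and 7 and 16 members higher and lower. Members called ranged from 7 to 14 higher and from 16 to 23 lower over all settings. Leaving out 1 library gave 7 to 10 members higher and 19 to 23 lower. Signs turned for genes that did not pass. With library totals alone the log2 fold change was 0.0489 for Eif4ebp1, 0.1021 for Iars, 0.0742 for Tars, 0.0163 for Yars, 0.0288 for Vars2 and 0.0518 for Slc7a6, where scaling moved the median of all genes by 0.11. Without a filter on low counts Iars was at 0.0027, and leaving out 1 library moved Eif4ebp1 between −0.1446 and 0.0342 (positive without DMSO replicate 2) and Iars between −0.04 and 0.0168 (positive without DMSO replicate 3), for which the cause was not tested. Under a filter at a mean of 5 CPM, Stc2, Pycr1, Cth and Slc7a3 were not tested. Same-numbered libraries of the 2 groups showed little shared deviation (r = −0.0337, −0.00297 and 0.0243). Deviations from means of 3 libraries cannot decide whether these libraries were paired by animal or culture. With the replicate block 10 members were higher and 22 lower, and 3215 and 3510 of all genes, with Ppp1r15a not called (adjusted p = 0.0684) and Eif2ak4 called (0.0358). Depth limits mainly Stc2, Pycr1, Cth and Slc7a3, which were under 10 CPM in all libraries.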

Other observations

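Inhibitor replicate 1 differed from the other inhibitor libraries for Ppp1r15a, as given above, and in the other direction for Gdf15, a stress-induced cytokine of the list of further ATF4 targets that was chosen after its values were seen. Gdf15 was at 536, 195 and 192 CPM with the inhibitor and at 117, 133 and 118 CPM with DMSO. The groups did not overlap, and the log2 fold change was 1.33 (SE 0.37, adjusted p = 0.0171 in edgeR's quasi-likelihood test). Without inhibitor replicate 1 it was 0.66 (adjusted p = 0.000267). Without DMSO replicate 1 or DMSO replicate 3 the call was lost (adjusted p = 0.0532 and 0.0541), with the log2 fold change at 1.29 in both cases.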
